A study of Mus musculus with 13 samples.

Results

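The polyamine enzymes and regulators described here were 8 genes of the mouse heart: Amd1, Amd2, Odc1, Srm, Sms, Smox, Sat1 and Azin1. They were chosen by symbol from a table of 55471 genes, and each symbol matched 1 row. All 8 were among the 15000 genes that passed the filter on low counts over all 13 libraries. The set was put together with earlier results of these data known, Amd2 among them, so the fold changes of Amd2 are given as a description, without a test.

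The libraries came from whole hearts of mice, 1 library per labelled sample, in 3 groups. WT control held 5 libraries of wild-type mice labelled as control, R502W control held 4 libraries of mice of the R502W cMyBP-C model labelled as control, and R502W mavacamten held 4 libraries of R502W mice given mavacamten at 2.5 mg/kg/day in their drinking water over 21 weeks. cMyBP-C (cardiac myosin binding protein C) is a protein of the sarcomere, and mavacamten is an inhibitor of cardiac myosin. The design text puts the animals at 24 weeks of age, while the extraction protocol names hearts of 3 and 18 weeks, and the labels do not settle which holds. The labels do not say whether the R502W mice carry the change on 1 or both alleles. No WT group received mavacamten, so the treatment was compared within R502W mice and against WT control.

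Polyamines (putrescine, spermidine and spermine) are small, positively charged molecules that bind nucleic acids and are needed for growth and translation. Ornithine decarboxylase (Odc1) makes putrescine from ornithine, and S-adenosylmethionine decarboxylase (Amd1 and Amd2) makes the aminopropyl donor that spermidine synthase (Srm) and spermine synthase (Sms) add to it. Spermine oxidase (Smox) and spermidine/spermine acetyltransferase (Sat1) run the route back. Antizymes bind ornithine decarboxylase and send it to the proteasome, and the antizyme inhibitor Azin1, an inactive relative of the enzyme, takes the antizymes up. In the heart, polyamines are known for their rise in hypertrophy and for the block of inward rectifier potassium channels.

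Amd1 and Amd2 are near-identical copies, and their sequences decide how far their counts can be told apart. In GENCODE M21 on GRCm38, Amd1 (ENSMUSG00000075232) lay on the minus strand at chr10:40287458-40302186, and its main transcript had 8 exons. Amd2 (ENSMUSG00000063953) lay on the minus strand of the same chromosome at chr10:35708675-35711892, and its transcript had 1 exon. The 2 transcripts matched at 99.6% of 3204 aligned bases, with 14 mismatches. Only 1 mismatch fell in the 1002 coding bases, G796C, counted from the A of the start codon with the Amd1 base first. It is position 40290186 of chromosome 10 in exon 7 of Amd1 and position 35710764 in the only exon of Amd2. The stretch around it is shown from coding base 766 to 826, 5′ to 3′ on the coding strand, with the differing base in capitals (chr10:40290156-40290216 for Amd1 and chr10:35710734-35710794 for Amd2, both minus strand).
Amd1: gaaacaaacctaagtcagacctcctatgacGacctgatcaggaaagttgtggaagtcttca
Amd2: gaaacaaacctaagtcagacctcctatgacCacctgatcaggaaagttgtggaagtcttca
A read of 75 bases would find an exact match in an Amd1 transcript from 79.2% of the start positions along the Amd2 transcript, and a read of 150 bases from 61.6%. No source used here gives the read length. RSEM divides reads that match both genes by estimation, and 11 of the 13 Amd1 values and 12 of the 13 Amd2 values were fractional. Each of the 2 levels therefore carries an uncertainty that the spread between libraries does not show, and the sum of both genes was analysed beside them.

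The bases before the 2 transcript starts are shown as a description. They are reference sequence, the same for every library, and their part in the Amd2 levels was not tested. Both are the 250 bases upstream of the RefSeq start on GRCm38.p6, minus strand, with matches to the motif TATATAA in capitals; the motif was searched on both strands, and TTATATA is its form on the other strand.
Amd1, chr10:40302189-40302438: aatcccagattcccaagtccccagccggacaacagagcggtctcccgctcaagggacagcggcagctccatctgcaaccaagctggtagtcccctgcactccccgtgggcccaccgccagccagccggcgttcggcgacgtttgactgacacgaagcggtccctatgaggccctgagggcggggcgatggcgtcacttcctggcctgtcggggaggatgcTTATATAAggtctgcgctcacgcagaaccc
Amd2, chr10:35711892-35712141: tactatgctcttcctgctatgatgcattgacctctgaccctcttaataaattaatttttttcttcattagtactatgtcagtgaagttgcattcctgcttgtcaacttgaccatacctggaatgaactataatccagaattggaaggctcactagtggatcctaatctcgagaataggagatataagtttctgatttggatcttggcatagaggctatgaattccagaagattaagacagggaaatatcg
The Amd1 window held 2 overlapping matches, 1 on each strand, and the Amd2 window held none of these letters. Of 32851 such windows, 998 (3.04%) held the motif. The GC content was 64.4% before Amd1 and 37.6% before Amd2, against a median of 52.4% over the windows, 8.5% of which lay at or below the Amd2 value. Over the windows of 250 bases before and 50 after the start, the longest shared run was 48 bases. This run reached the end of the Amd1 window, so its full length was not measured. It began at the start of Amd2 and 2 bases past that of Amd1, so the run held no upstream base. The upstream bases were not aligned with each other.

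Total expected counts were 15420583 to 18218404 per library in WT control, 15350622 to 19361103 in R502W control and 16001651 to 17520706 in R502W mavacamten. All 8 cardiomyocyte markers (Myh6, Tnnt2, Actc1, Tnni3, Ryr2, Pln, Myl2 and Actn2) were detected in every library. Several libraries also held RNA of other tissues. The T cell and thymus markers summed to 417 CPM (counts scaled to a common library size with TMM factors) in WT control replicate 2 and to at most 6.43 CPM elsewhere. The airway markers summed to 380, 604 and 151 CPM in WT control replicates 2 and 3 and R502W mavacamten replicate 1, and to at most 24.9 CPM elsewhere. Adipocyte markers summed to 558, 541, 329 and 505 CPM in WT control replicates 2 and 3, R502W control replicate 1 and R502W mavacamten replicate 4, the 4 libraries with Adipoq over 50 CPM. Fold changes without these 4 libraries are given where a call was lost or the log2 value moved by more than 0.1.

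Amd2 was the member that varied most, and its libraries split into high and near-0 ones, a split that crossed the groups. Among the high libraries, WT control replicates 4 and 5 stood below the others. In WT control, replicates 1 to 5 stood at 22.2, 14.5, 19.1, 8.86 and 6.37 CPM. In R502W control, replicates 1 to 4 stood at 0.545, 0.409, 17.3 and 17.4 CPM. In R502W mavacamten, replicates 1 to 4 stood at 0.197, 0, 0.245 and 0.0941 CPM. All 5 WT control libraries and R502W control replicates 3 and 4 were thus high, and the other 6 libraries, including all of the treated group, were at or near 0. Amd2 also followed the numbers in the library names, whose meaning the labels do not give. R502W control replicates 1 and 2 (1252 and 1253) and the 4 treated libraries (1256, 1257, 1258 and 1260) have the 6 lowest numbers of the R502W libraries, and all 6 stood at or below 0.545 CPM. R502W control replicates 3 and 4 (1264 and 1265) stood at 17.3 and 17.4 CPM. In WT control, 1233, 1234 and 1235 stood at 14.5 to 22.2 CPM, and 1269 and 1270 at 8.86 and 6.37 CPM. Among those 6, 0.545 and 0.409 CPM in controls stood beside 0 to 0.245 CPM under mavacamten. In number order, all R502W libraries lay between the 2 runs of WT libraries. The part of whatever these numbers record in the Amd2 levels was not tested. The group means were 14.2 ± 6.68 CPM (SD, n = 5), 8.93 ± 9.76 CPM (SD, n = 4) and 0.134 ± 0.109 CPM (SD, n = 4).

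In expected counts, the high libraries held 101.06 to 336.87 and the low ones 0 to 8.35. R502W control replicates 1 and 2 had 8.35 and 7.36, and the treated libraries 3.5, 0, 3.46 and 1.74. The 0 in R502W mavacamten replicate 2 allows up to 3 counts, or 0.193 CPM. Summed over libraries and rounded, WT control had 1130 counts, R502W control 660 and R502W mavacamten 9. Scaled for depth, Amd2 was 101 times as high in WT control as in R502W mavacamten (95% exact conditional Poisson interval 53.1 to 222), and 68.7 times as high in R502W control as in R502W mavacamten (36.0 to 151). These intervals cover counting error only, and not the spread between libraries or the division of shared reads.

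The ratio of R502W control to R502W mavacamten rested on replicates 3 and 4 of the control group, since replicates 1 and 2, at 0.545 and 0.409 CPM, lay just above the highest treated library at 0.245 CPM. By that narrow step the libraries of the 2 groups did not overlap, as for 1.58% of tested genes in the same direction. Against WT control, replicates 3 and 4 of R502W control lay inside the WT range and replicates 1 and 2 below it. On edgeR's scale the log2 fold changes of Amd2 were -0.66 ± 0.78 (SE) for R502W control against WT control, -5.96 ± 1.30 for R502W mavacamten against R502W control and -6.62 ± 1.27 for R502W mavacamten against WT control. With each library left out in turn they ranged from -1.21 to -0.27, from -6.36 to -5.41 and from -7.02 to -6.27. The first was -1.79 with the sample number as a replicate block and -0.10 without the 4 libraries with Adipoq over 50 CPM, where the others were -6.25 and -6.35.

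Amd1, the gene with introns, stayed within a narrow range in all 13 libraries. WT control replicates 1 to 5 stood at 105.7, 78.5, 87.2, 106.3 and 96.6 CPM, R502W control replicates 1 to 4 at 80.1, 92.9, 84.5 and 87.4 CPM, and R502W mavacamten replicates 1 to 4 at 80.4, 98.2, 94.6 and 90.2 CPM. All 3 groups overlapped, and the lowest library was WT control replicate 2. The group means were 94.8 ± 12.0 (SD, n = 5), 86.2 ± 5.38 (SD, n = 4) and 90.9 ± 7.71 CPM (SD, n = 4). Amd1 was not higher in the libraries where Amd2 was near 0: the 2 R502W control libraries with low Amd2 had 80.1 and 92.9 CPM of Amd1, and the 2 with high Amd2 had 84.5 and 87.4 CPM. The log2 fold changes were -0.14 ± 0.10 for R502W control against WT control (edgeR adjusted p = 0.377), 0.08 ± 0.10 for mavacamten against R502W control (edgeR 95% interval -0.15 to 0.30) and -0.06 ± 0.10 for mavacamten against WT control (edgeR adjusted p = 0.728). Without the 4 libraries with Adipoq over 50 CPM, the values against WT control were -0.25 for R502W control and -0.21 for mavacamten, neither of them called.

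Amd2 made up a variable part of the summed transcripts. Its share of the Amd1 plus Amd2 level was 17.4%, 15.6%, 17.9%, 7.69% and 6.19% in WT control replicates 1 to 5. It was 0.676%, 0.438%, 17.0% and 16.6% in R502W control, and 0.244%, 0%, 0.258% and 0.104% in R502W mavacamten; the 0% allows a share of up to 0.196%. In all, 5 of the 7 high libraries lay close together between 15.6% and 17.9%, and WT control replicates 4 and 5 stood lower.

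**Figure D1:**
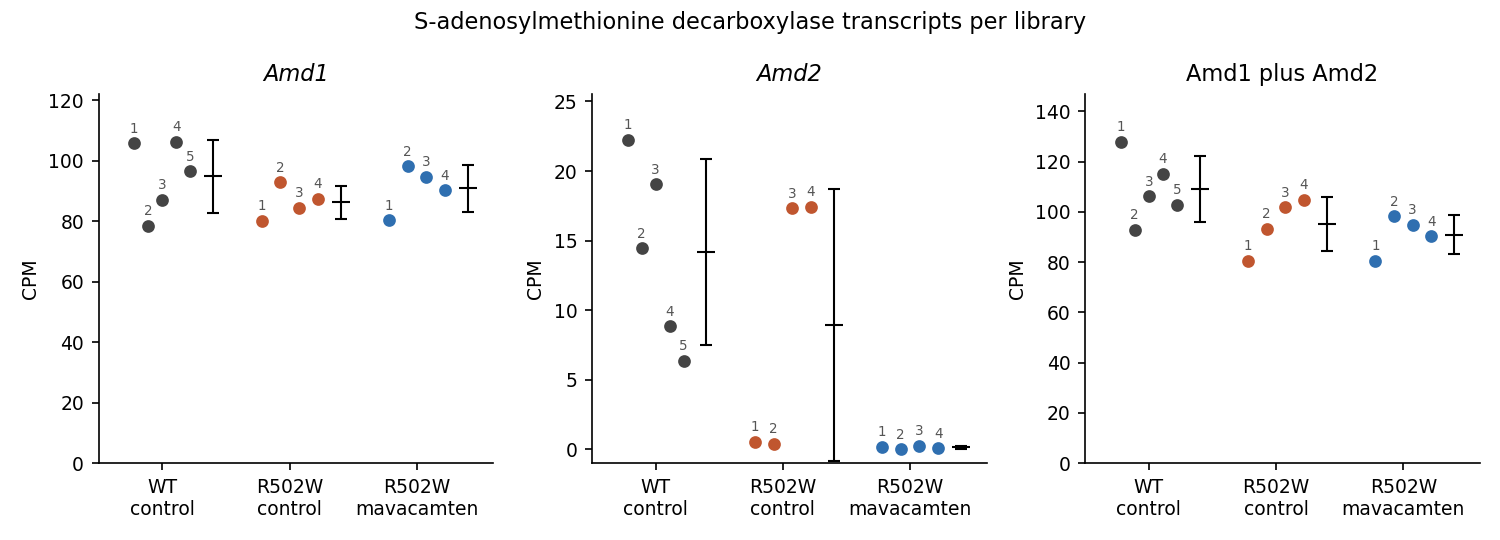
Level of Amd1, Amd2 and their sum in CPM (vertical axis, a scale of its own in each panel) for each library, numbered by replicate, with the group mean and SD as a bar beside the points. Amd2 is near 0 in R502W control replicates 1 and 2 and in all 4 mavacamten libraries, while Amd1 lies between 78.5 and 106.3 CPM throughout.

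The sum of Amd1 and Amd2, which does not depend on how shared reads were divided, had no called difference in the fit over all 13 libraries. It was 128, 92.9, 106, 115 and 103 CPM in WT control replicates 1 to 5, 80.7, 93.3, 102 and 105 CPM in R502W control replicates 1 to 4, and 80.6, 98.2, 94.9 and 90.3 CPM in R502W mavacamten. The groups overlapped, with means of 109 ± 13.2 (SD, n = 5), 95.2 ± 10.8 (SD, n = 4) and 91.0 ± 7.66 CPM (SD, n = 4). The log2 fold change was -0.20 ± 0.10 for R502W control against WT control (edgeR adjusted p = 0.232) and -0.06 ± 0.11 for mavacamten against R502W control (edgeR 95% interval -0.30 to 0.17). For mavacamten against WT control it was -0.26 ± 0.10 (edgeR adjusted p = 0.137, edgeR 95% interval -0.49 to -0.04). It passed the threshold of 0.05 without WT control replicate 2, at -0.35 (edgeR adjusted p = 0.0444). Without the 4 libraries with Adipoq over 50 CPM it was -0.37 (edgeR adjusted p = 0.0598). In whole-heart RNA, fewer cells of a type and less RNA per cell cannot be told apart for any of these genes.

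The tested genes around Amd2 did not show its split between high and near-0 libraries. Of 13 tested genes starting within 2000000 bases of it, 12 had a highest library between 1.28 times (Tspyl4) and 3.71 times (A830082N09Rik) their lowest, and Calhm6 ran from 0 to 3.95 CPM. Over the 13 libraries, their Pearson correlation with Amd2 in log2 CPM ran from -0.63 (Tspyl4) to 0.50 (Hdac2), given as a description. Copies of Amd elsewhere took few reads: Amd-ps3 had 15.74 counts over all libraries, and Amd-ps4, Amd-ps6, Amd-ps1 and Amd-ps5 had 4 or fewer each.

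Of the 8 members, 1 was called in R502W control against WT control (Azin1, higher), where 12.4% of the 15000 tested genes were called in either direction and 8.63% as higher. None of the 8 was called in R502W mavacamten against R502W control, where edgeR called 0% of all genes, 525 genes (3.50%) had an unadjusted p under 0.05 and DESeq2 called 6 genes. In R502W mavacamten against WT control, none of the 7 members other than Amd2 was called, where 8.21% of tested genes were called. Amd2 itself lay past the threshold there as lower, as did 2.29% of tested genes; it was chosen with that result known, and nothing is read from it. A call is an adjusted p under 0.05 in edgeR's quasi-likelihood test, Benjamini-Hochberg adjusted over all tested genes. The share of 1 in 8 in R502W control against WT control is near the background. The median log2 fold change of the 8 was -0.07, -0.05 and -0.07 in the 3 comparisons, against -0.01, 0.00 and 0.00 over all tested genes. Both comparisons against WT control share the WT control libraries, and mavacamten against R502W control shares its libraries with both.

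Odc1 (ENSMUSG00000011179, chr12:17544794-17551505, plus strand), the enzyme that opens the pathway, had the steadiest level of the members. WT control replicates 1 to 5 stood at 67.2, 72.2, 64.2, 65.9 and 58.0 CPM, R502W control replicates 1 to 4 at 68.4, 63.4, 68.6 and 67.4 CPM, and R502W mavacamten replicates 1 to 4 at 67.4, 73.1, 61.1 and 64.6 CPM. The lowest and highest libraries of WT control enclosed all of R502W control. Means were 65.5 ± 5.15 (SD, n = 5), 66.9 ± 2.45 (SD, n = 4) and 66.5 ± 5.07 CPM (SD, n = 4). The log2 fold changes were 0.03 (edgeR 95% interval -0.13 to 0.19), -0.01 (-0.18 to 0.16) and 0.02 (-0.14 to 0.19) in the 3 comparisons, in the order R502W control against WT control, mavacamten against R502W control and mavacamten against WT control.

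Azin1 (ENSMUSG00000037458, chr15:38487427-38519266, minus strand), which protects ornithine decarboxylase from the antizymes, was higher than in WT control in every library of both R502W groups. WT control replicates 1 to 5 stood at 61.5, 46.1, 66.7, 67.5 and 57.2 CPM. R502W control replicates 1 to 4 stood at 72.6, 79.2, 72.1 and 75.4 CPM, and R502W mavacamten replicates 1 to 4 at 71.9, 73.8, 72.2 and 74.0 CPM. Every R502W library, treated or not, lay above every WT control library, as 12.3% of tested genes did in R502W control and 8.54% in R502W mavacamten. Means were 59.8 ± 8.71 (SD, n = 5), 74.8 ± 3.30 (SD, n = 4) and 73.0 ± 1.09 CPM (SD, n = 4).

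Azin1 rose 1.25-fold in R502W control against WT control (log2 fold change 0.32 ± 0.10, edgeR adjusted p = 0.0426). In mavacamten against WT control its log2 fold change was 0.29 ± 0.10, which missed the threshold (edgeR adjusted p = 0.0821), and in mavacamten against R502W control it was -0.04 ± 0.10. The call lay close to the threshold and was lost in 10 of 13 fits that left out 1 library, in which the log2 fold change was 0.26 to 0.34; without WT control replicate 2, the lowest, it was 0.21 and still called (edgeR adjusted p = 0.0494). It was also lost without the 4 libraries with Adipoq over 50 CPM, at 0.26 (edgeR adjusted p = 0.0616). Marker levels of the 3 lists with a called gene are given beside it. The atrial, T cell and thymus, adipocyte, erythroid, fibroblast and macrophage marker lists held no called gene in any comparison. The 8 cardiomyocyte markers summed to 41856 to 59979 CPM in WT control. Their sums were 57788 to 66133 CPM in R502W control and 53770 to 74960 CPM in R502W mavacamten. Myh6 alone ran from 18136 to 40240 CPM, while Tnni3, Pln and Myl2 were highest in WT control replicate 1. Against WT control, 1 of the 8 was called higher in R502W control and 2 in R502W mavacamten. Of all tested genes, 8.63% and 5.93% were called higher in these comparisons. The 4 endothelial markers (Pecam1, Cdh5, Kdr and Tie1) summed to 455 to 617 CPM, 701 to 827 CPM and 534 to 740 CPM in the 3 groups, with 1 of 4 called higher against WT control in each R502W group. Of the 4 airway markers, Scgb1a1, Cyp2f2 and Scgb3a2 were tested, and all 3 were called lower in R502W control against WT control and none in R502W mavacamten against WT control; the sums ran from 1.39 to 604 CPM in WT control, from 0.281 to 1.61 CPM in R502W control and from 2.64 to 151 CPM in R502W mavacamten, and Sftpc was at 0 in 12 libraries. The high airway sums of WT control were those of replicates 2 and 3, and replicates 1, 4 and 5 stood at 3.96, 3.31 and 1.39 CPM. The part of these lists in the Azin1 result was not tested. The antisense gene Gm49077 within Azin1 had 8.4 counts over all 13 libraries.

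Srm (ENSMUSG00000006442, chr4:148591503-148594993, plus strand), which makes spermidine, was among the lowest members in CPM. It stood at 9.24, 15.1, 11.3, 12.2 and 10.7 CPM in WT control replicates 1 to 5, at 8.82, 13.4, 11.9 and 9.37 CPM in R502W control, and at 10.6, 9.07, 9.28 and 12.1 CPM in R502W mavacamten. The groups overlapped, and the highest value was in WT control replicate 2, the library with thymus and airway markers. The log2 fold changes were -0.11 ± 0.16 for R502W control against WT control (edgeR adjusted p = 0.696), -0.08 ± 0.17 for mavacamten against R502W control (edgeR 95% interval -0.44 to 0.28) and -0.19 ± 0.16 for mavacamten against WT control (edgeR adjusted p = 0.490). Without the 4 libraries with Adipoq over 50 CPM, the first was 0.08 and the value for mavacamten against R502W control was -0.26.

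Sms (ENSMUSG00000071708, chrX:157443855-157492287, minus strand), which makes spermine, had its highest mean in R502W control. WT control replicates 1 to 5 stood at 41.9, 34.6, 30.0, 37.0 and 31.5 CPM, R502W control replicates 1 to 4 at 41.4, 43.5, 35.8 and 42.2 CPM, and R502W mavacamten replicates 1 to 4 at 35.6, 32.4, 38.5 and 33.7 CPM. R502W control replicates 1, 2 and 4 exceeded every treated library, and replicate 3 overlapped them. Means were 35.0 ± 4.72 (SD, n = 5), 40.7 ± 3.41 (SD, n = 4) and 35.0 ± 2.63 CPM (SD, n = 4). The log2 fold changes were 0.22 ± 0.10 against WT control (edgeR adjusted p = 0.165), -0.22 ± 0.11 for mavacamten against R502W control (edgeR 95% interval -0.45 to 0.01) and 0.00 ± 0.10 for mavacamten against WT control (edgeR adjusted p = 0.991). None passed the threshold. All 13 Sms values were fractional, and the pseudogene Sms-ps held 2069.31 counts in all; with both summed, the first log2 fold change was 0.27 (edgeR adjusted p = 0.0943). Without the 4 libraries with Adipoq over 50 CPM it was 0.11.

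Smox (ENSMUSG00000027333, chr2:131491496-131525922, plus strand), which oxidises spermine back to spermidine, showed no difference past the threshold. It ran from 18.5 to 22.7 CPM in WT control (median 20.1), from 18.9 to 21.0 CPM in R502W control and from 15.8 to 22.3 CPM in R502W mavacamten. The lowest of the 13 libraries was R502W mavacamten replicate 4. The log2 fold changes were -0.04 ± 0.10 (edgeR adjusted p = 0.827), -0.05 ± 0.11 (edgeR 95% interval -0.28 to 0.19) and -0.09 ± 0.10 (edgeR adjusted p = 0.635).

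Sat1 (ENSMUSG00000025283, chrX:155213132-155216449, minus strand), the acetyltransferase that opens polyamine breakdown, had a lower mean in both R502W groups, within the overlap of the libraries. WT control replicates 1 to 5 stood at 26.7, 34.6, 30.4, 30.5 and 28.4 CPM, R502W control replicates 1 to 4 at 30.3, 26.2, 20.6 and 22.9 CPM, and R502W mavacamten replicates 1 to 4 at 25.2, 22.6, 18.4 and 30.2 CPM. Means were 30.1 ± 2.94 (SD, n = 5), 25.0 ± 4.23 (SD, n = 4) and 24.1 ± 4.92 CPM (SD, n = 4). The log2 fold changes were -0.27 ± 0.14 against WT control (edgeR adjusted p = 0.222), -0.05 ± 0.15 for mavacamten against R502W control and -0.32 ± 0.14 for mavacamten against WT control (edgeR adjusted p = 0.169).

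The highest Sat1 library of each group was 1 with Adipoq over 50 CPM: WT control replicate 2, R502W control replicate 1 and R502W mavacamten replicate 4, with adipocyte marker sums of 558, 329 and 505 CPM. The other such library, WT control replicate 3, had an adipocyte marker sum of 541 CPM and 30.4 CPM of Sat1. WT control replicate 4 had 30.5 CPM of Sat1 with an adipocyte marker sum of 155 CPM. Without the 4 libraries with Adipoq over 50 CPM, the log2 fold changes of Sat1 were -0.32 (edgeR adjusted p = 0.139), -0.07 and -0.40 (edgeR adjusted p = 0.0984), so all 3 kept their sign and their side of the threshold.

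**Figure D2:**
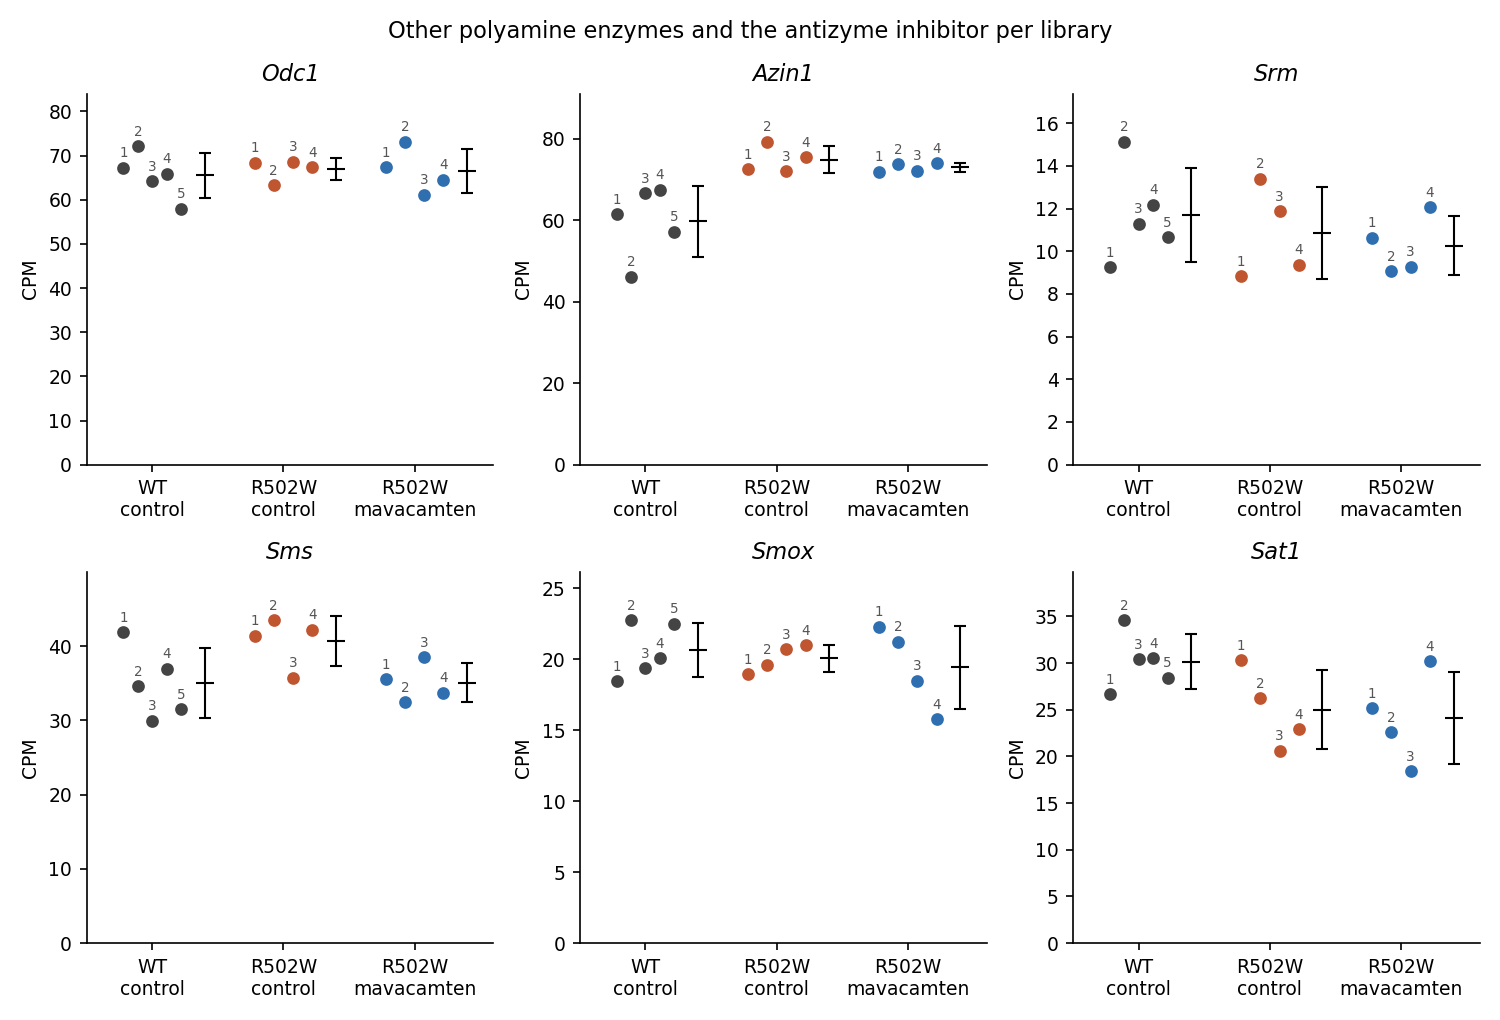
Level in CPM (vertical axis, a scale of its own in each panel, starting at 0) of the 6 members other than Amd1 and Amd2 in each library, numbered by replicate, with the group mean and SD as a bar. Every R502W library of Azin1 lies above the highest WT control library at 67.5 CPM, while the groups of Odc1, Srm, Sms, Smox and Sat1 overlap.

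**Figure D3:**
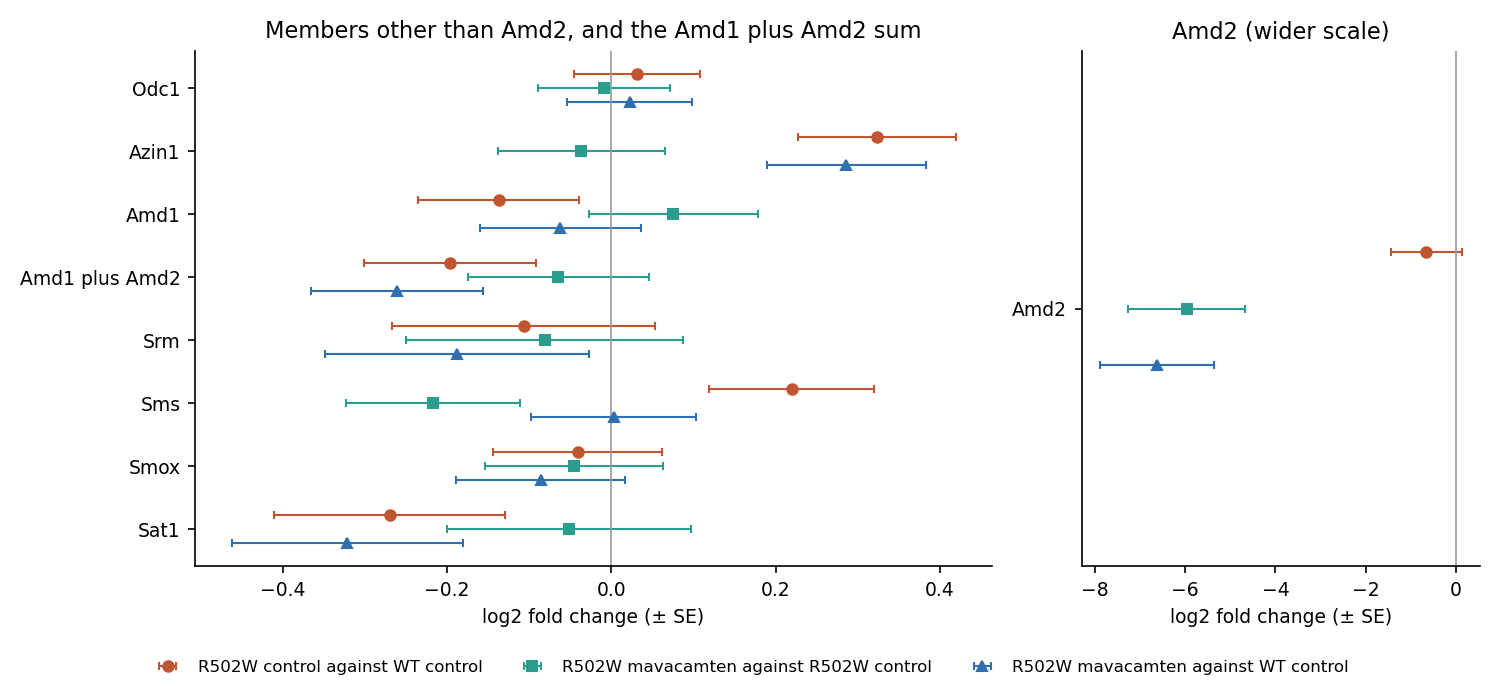
Log2 fold change (horizontal axis) with its standard error for each member and for the Amd1 plus Amd2 sum in the 3 comparisons; Amd2 has a panel with a wider scale. All members except Amd2 lie between -0.32 and 0.32.

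Levels of different members can be set side by side only per length, here as CPM per kb of exon. Over the 13 libraries the mean was 25.7 CPM per kb for Amd1, 19.5 for Odc1, 10.9 for Azin1, 9.62 for Sat1, 6.88 for Srm, 6.12 for Sms, 5.16 for Smox and 2.56 for Amd2. Amd1, with 22.2 to 30.0 CPM per kb, lay above Odc1 (17.0 to 21.5) in its whole range, and Odc1 lay above Azin1 (7.38 to 12.7). From Azin1 downwards each neighbour in this order overlapped the next. Amd2 was the lowest on average but reached 6.91 CPM per kb in WT control replicate 1, above the Smox range of 4.05 to 5.84.

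The genes whose levels most resembled the Amd1 plus Amd2 sum over the 13 libraries, among 13695 genes whose mean level reached 1 CPM, were Gps1 (Pearson r of log2 CPM 0.867), Mtap (0.856), Abca4 (0.849), Mad2l1bp (0.845) and Tspan7 (0.844). Mtap encodes the enzyme that recycles methylthioadenosine, the by-product of spermidine and spermine synthesis. After each group's mean was taken off, the order was led by Cep78 (0.933), Ppp3r1 (0.927), Mtr (0.920), Gpr22 (0.917) and Gm20544 (0.917). Mtr encodes methionine synthase. For Amd2 itself, a ranking was added after its levels were seen. It was led by Babam2 (0.899, chromosome 5), Gnb1 (0.868, chromosome 4), 1700088E04Rik (0.856, chromosome 15), Tmem248 (0.846, chromosome 5) and Tmem214 (0.846, chromosome 5). None of them lies on chromosome 10. On chromosome 5, Babam2 starts at base 31697684 and Tmem214 at base 30868012. The listed correlations are descriptions over libraries that share groups and depth, each the highest of many candidates.

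Around the 8 members, 56 other genes of polyamine metabolism were listed in 7 sets, of which 42 passed the filter on low counts. In R502W control against WT control, 2 of the 42 rose and 4 fell, or 14.3%. Of all tested genes, 12.4% were called (8.63% higher and 3.75% lower). The median log2 fold change of the 42 was -0.10, beside -0.01 over all tested genes. Of the 42, 30 were negative, and the share of negative values over all tested genes was not measured. None of the 42 was called in R502W mavacamten against R502W control. In R502W mavacamten against WT control, 1 rose and 1 fell, or 4.76% beside 8.21% (5.93% higher and 2.29% lower). The median was -0.13, beside 0.00 over all tested genes. Arg1, Arg2, Otc, Oaz3, Satl1, Aoc1, Mat1a and 7 others did not pass the filter.

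In the supply of ornithine and proline, 1 of 3 tested genes was called. Aldh18a1, the synthase that makes the common precursor of proline and ornithine, rose from 10.9 ± 1.49 CPM (SD, n = 5) in WT control to 15.3 ± 1.87 CPM (SD, n = 4) in R502W control, and the log2 fold change was 0.48 ± 0.11 (edgeR adjusted p = 0.0146). Its log2 fold change was -0.30 ± 0.12 in mavacamten against R502W control, which was not called, and 0.18 ± 0.11 in mavacamten against WT control. None of the 3 tested antizymes and antizyme inhibitors other than Azin1 was called; Oaz1, antizyme 1, had -0.23 ± 0.10 in R502W control (edgeR adjusted p = 0.143) and -0.23 in R502W mavacamten (edgeR adjusted p = 0.170) against WT control. Oaz2 had 0.11 ± 0.11 in mavacamten against R502W control.

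In breakdown, 1 of 3 tested genes was called. Aldh9a1, an aminobutyraldehyde dehydrogenase, fell from 41.0 ± 2.47 CPM (SD, n = 5) in WT control to 31.6 ± 3.19 CPM (SD, n = 4) in R502W control, and the log2 fold change was -0.38 ± 0.09 (edgeR adjusted p = 0.0203). Its log2 fold change was 0.24 ± 0.10 in mavacamten against R502W control and -0.13 in mavacamten against WT control, neither of them called. In transport, 1 of 11 tested genes was called in each comparison with WT control. Gpc1, a heparan sulfate proteoglycan involved in polyamine uptake, rose from 364 ± 35.5 to 489 ± 60.4 CPM in R502W control (log2 fold change 0.43 ± 0.11, edgeR adjusted p = 0.0205). Atp13a3, a polyamine-transporting ATPase, rose in mavacamten against WT control, from 37.5 ± 6.91 CPM (SD, n = 5) to 52.4 ± 2.52 CPM (SD, n = 4), for a log2 difference of 0.48 ± 0.12 (edgeR adjusted p = 0.0327), and its value in R502W control against WT control was 0.39 ± 0.12 (edgeR adjusted p = 0.0521). Slc47a1 had -0.14 ± 0.08 in mavacamten against R502W control.

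Spermidine is also the donor for hypusine, the modified residue of the translation factor Eif5a. Dhps, which transfers the spermidine part, fell from 14.8 ± 2.72 CPM (SD, n = 5) in WT control to 11.0 ± 0.535 CPM (SD, n = 4) in R502W control, and the log2 fold change was -0.43 ± 0.13 (edgeR adjusted p = 0.0394), as 1 of 4 tested genes of this set. Its values in mavacamten were 0.10 ± 0.13 against R502W control and -0.33 ± 0.13 against WT control, without a call. In the methionine cycle and methylthioadenosine salvage, 1 of 11 was called. Adi1, a dioxygenase of the salvage route, fell from 31.0 ± 2.67 CPM (SD, n = 5) to 24.5 ± 0.715 CPM (SD, n = 4) in R502W control, for a log2 difference of -0.34 ± 0.08 (edgeR adjusted p = 0.0178), and had -0.26 ± 0.08 in mavacamten against WT control (edgeR adjusted p = 0.0696). Apip had -0.22 ± 0.10 in mavacamten against R502W control.

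The Myc network, which includes known regulators of Odc1, had 1 of 7 tested genes called in each comparison with WT control. Max, the partner of Myc, fell from 36.7 ± 4.19 CPM (SD, n = 5) to 27.8 ± 3.04 CPM (SD, n = 4) in R502W control, and the log2 fold change was -0.40 ± 0.12 (edgeR adjusted p = 0.0412). In R502W mavacamten it stood at 25.7 ± 4.14 CPM (SD, n = 4), -0.51 ± 0.12 against WT control on the log2 scale (edgeR adjusted p = 0.0230). Myc had -0.48 ± 0.43 in mavacamten against R502W control. Most of these calls lay near the threshold: with 1 library left out in turn, Adi1 kept its call in all 13 fits, Aldh18a1 lost it without R502W control replicate 2 or 3, Gpc1 and Aldh9a1 without replicate 2, 3 or 4 of that group, and Dhps and the first Max call in 6 and 7 fits. Atp13a3 lost its call in 7 fits, and the second Max call was lost without R502W mavacamten replicate 2 or 3. Under the other settings Aldh18a1 kept its call. With the replicate block, the calls of Gpc1, Aldh9a1, Dhps, Adi1 and Atp13a3 were lost. With the length trend removed, those of Dhps, Adi1, Atp13a3 and Max in R502W control were lost. Dhps and Atp13a3 also lost theirs with no filter and with only the 2 groups compared, the second Max call was lost with only the 2 groups compared, and Dhps and Adi1 lost theirs without the 4 libraries with Adipoq over 50 CPM. Of the marker lists given beside Azin1, the cardiomyocyte list held 1 of 8 genes called higher in R502W control against WT control. In R502W mavacamten against WT control it held 2 of 8. The endothelial list held 1 of 4 in each of these comparisons, and the marker lists not given there held no called gene. The airway list had its 3 tested genes called lower in R502W control and none called in R502W mavacamten. The part of these lists in the calls of the pathway genes was not tested.

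**Figure D4:**
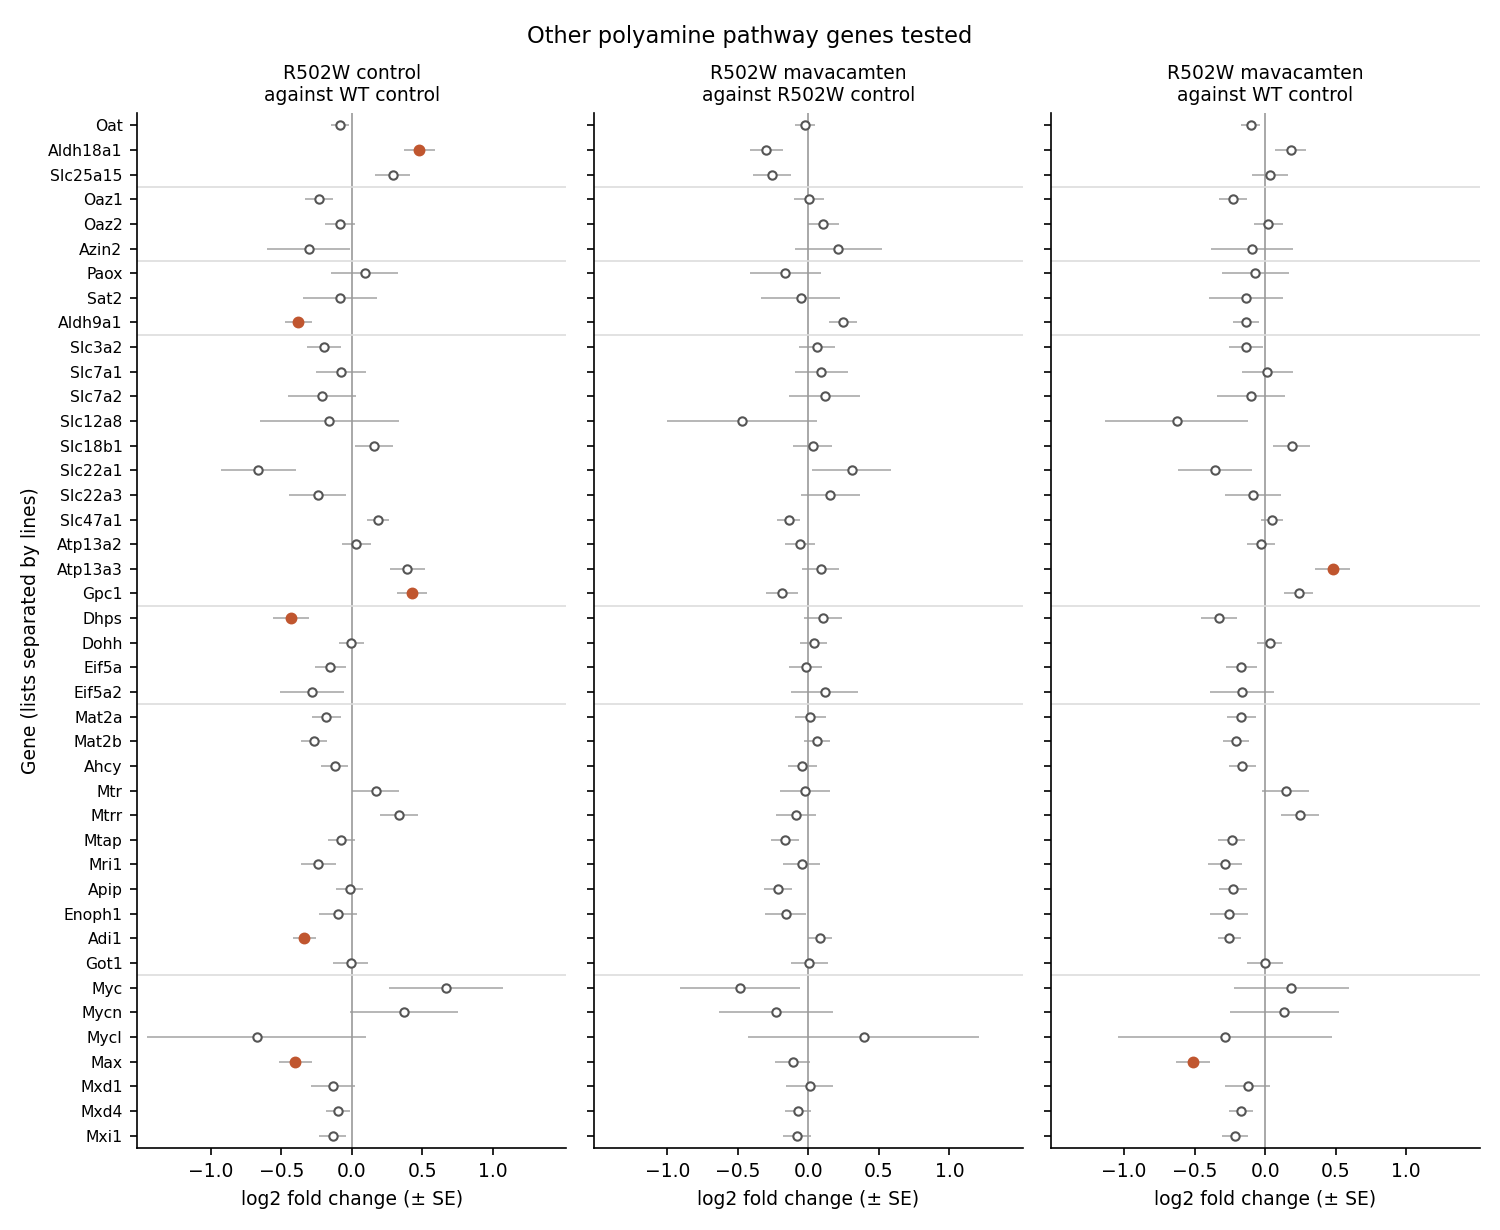
Log2 fold change (horizontal axis) with its standard error for the 42 tested genes of the 7 other polyamine sets, 1 panel per comparison, with filled points for genes called at an adjusted p under 0.05. Filled points are 6 genes in R502W control against WT control, none in R502W mavacamten against R502W control, and Atp13a3 and Max in R502W mavacamten against WT control.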

How the data were processed

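Poly(A)-selected, strand-specific libraries of whole mouse heart were sequenced, per the labels' protocols. The authors deposited expected counts per Ensembl gene, estimated with RSEM on GRCm38, per the submitters' processing notes, which also name cutadapt, FastQC and DESeq2. The aligner, strand setting and read length are not given in the sources used here. Symbols, positions and exon lengths came from GENCODE M21 (55144 of 55471 IDs had a symbol), transcript sequences from the same release and promoter windows from RefSeq.

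Expected counts were rounded and tested with edgeR 4.0.16 (R 4.3.3): genes with a count of at least 10 in enough libraries and 15 in total, TMM factors, 1 quasi-likelihood fit over all 13 libraries, 3 contrasts, Benjamini-Hochberg adjustment over 15000 genes (14999 with Amd1 and Amd2 summed), threshold 0.05. The fit was also run on simulated counts, with changes larger than those of the called members (other than Amd2) and pathway genes. That run does not cover calls of their size. CPM used TMM-scaled library sizes. The biological coefficient of variation was 0.232.

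The members and gene lists were chosen with earlier results of these data known. Named were all members, every listed pathway gene called in any comparison, and in each list the tested gene with the smallest p. The labels do not say that each library is a separate animal, so p-values reflect only how libraries of a group varied, which may be technical. Libraries of a group differed by more than counting noise in all 22 within-group pairs (chi-square per degree of freedom 7.60 to 109.8). Alternatives were RLE factors, no filter, DESeq2 1.42.0, only the groups compared, each library left out, the sample number as a block, and a removed trend with gene length.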

Additional observations from a re-analysis of the deposited data

How the results depend on the processing

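Azin1 in R502W control against WT control was the only member call there, and the number of members called was 0 with RLE factors, no filter, only the 2 groups compared, the replicate block, the length trend removed, or without the 4 libraries with Adipoq over 50 CPM; it was 0 to 1 with each library left out. Azin1 itself was 0.296, 0.30, 0.322, 0.316, 0.234 and 0.257 under these settings, and 0.30 and called with DESeq2. Its edgeR or DESeq2 adjusted p ran from 0.0327 to 0.165. The number called in R502W mavacamten against R502W control was 1 with DESeq2 (Amd2, at -6.03, chosen with its result known, so nothing is read from it) and 0 under the other alternatives. With only these 2 groups compared, Amd2 did not pass the filter on low counts, so it was not tested under that setting. In R502W mavacamten against WT control, the summed Amd1 and Amd2 ranged from -0.35 to -0.22 with each library left out. It was called only without WT control replicate 2. In R502W mavacamten against R502W control the sum ranged from -0.14 to -0.01 and was not called.

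Pathway genes called in R502W control against WT control were 2 with the replicate block and 8 with DESeq2 against 6, and 1 to 7 with each library left out; without R502W control replicates 2, 3 and 4 in turn they were 1, 1 and 2. In R502W mavacamten against WT control they were 1 with no filter, the replicate block or the length trend removed, 0 with only the 2 groups compared, 3 with RLE factors or DESeq2, and 0 to 2 with each library left out, against 2. All genes called there were 1846 with DESeq2 and 631 with the length trend removed, against 1232. The cause of these changes was not tested.

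Values near 0 changed sign. Odc1 was -0.000292, -0.00792 and -0.0192 against WT control in the treated mice (RLE factors, 2 groups, replicate block), -0.00694 in R502W control with the block, and 0.00288 and 0.0141 under treatment (2 groups, without the 4 libraries). Sms in treated mice against WT control was -0.0208, -0.0143, -0.0204, -0.0272, -0.0236, -0.0749 and -0.0799 (RLE, no filter, DESeq2, 2 groups, block, length trend, without the 4 libraries). Srm in R502W control was 0.0441 and 0.0795 (length trend, without the 4 libraries), and Smox under treatment 0.0162 without the 4 libraries. With each library left out, Odc1 ranged from -0.00989 to 0.0344, -0.0447 to 0.0432 and -0.0424 to 0.0456 in the 3 comparisons, Sat1, Smox and Srm under treatment from -0.179 to 0.0712, -0.118 to 0.0425 and -0.170 to 0.0356, and Sms in treated mice against WT control from -0.0598 to 0.0578. Summing with Sms-ps and leaving out the 4 libraries were chosen after seeing the data.

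The sample numbers did not pair the libraries: over 12 same-numbered pairs the correlation of deviations ran from -0.323 to 0.253, and 1 was over 0.1, so the replicate block is an alternative only. Counts of 0 to 8.35 limit how finely the low Amd2 libraries can be ranked.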
